A study of Homo sapiens with 4 samples.

Results

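The miR-191 and miR-425 cluster is a pair of microRNA hairpins, MIR191 and MIR425, that lie close together inside the host gene DALRD3. It was followed here in the human osteosarcoma line U2OS. Its members were chosen by assay name and shared host transcript, with their Ct ratios in these samples already known: hsa-miR-191, hsa-miR-191*, hsa-miR-425 and hsa-miR-425*, where the asterisk marks the arm opposite the one usually kept. These are 4 of the 737 mature miRNAs on the panels, read in 5 of 740 miRNA wells, because miR-191 has a well on each of the 2 panels. The values used in choosing them are given below as descriptions, and no test was made on them.

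The study has 4 samples, 1 per group. shDDX1 cells carried a lentiviral short hairpin RNA against DDX1, and shNS cells a lentiviral control hairpin. Both were kept under puromycin at 2 µg/ml. NCS cells received neocarzinostatin at 500 ng/ml for 6 h, and untreated cells received none. No infection or selection is given in the characteristics of the NCS pair, and the pairs share no sample. Whether a sample came from 1 culture or several is not given in the sources used here, and the DDX1 transcript was not among the assays.

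A microRNA is cut from a long primary transcript by Drosha in the nucleus and from the resulting hairpin by Dicer in the cytoplasm. Hairpins of a cluster start from the same primary transcript, and the arms of a hairpin start from the same precursor, so mates share their transcription and arms share a precursor. DDX1 is a DEAD-box RNA helicase, named in the study's title as promoting processing of some primary miRNAs, and neocarzinostatin breaks both DNA strands. miR-191 is abundant in many cell types and is widely used as a reference assay in miRNA PCR. miR-425 is its cluster mate.

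The mature sequences are shown because these members differ in their seed, the stretch at bases 2 to 8 that pairs with target mRNAs. RefSeq (GRCh38.p14) entries matched 3 of the 4 members, and hsa-miR-425-5p is named only. Seeds are in capitals.
miR-191 (hsa-miR-191-5p): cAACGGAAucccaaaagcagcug
miR-191* (hsa-miR-191-3p): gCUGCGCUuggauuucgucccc
miR-425* (hsa-miR-425-3p): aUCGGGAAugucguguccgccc
Each of these seeds was shared with 0 other mature miRNAs of the table. miR-191 is 23 bases long with 52.2% G and C, and miR-191* and miR-425* are 22 bases long with 63.6% each.

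In the MIR191 hairpin below, both mature arms are in capitals. It is printed because panel II holds a well for each of its arms, which puts both on a common scale.
MIR191: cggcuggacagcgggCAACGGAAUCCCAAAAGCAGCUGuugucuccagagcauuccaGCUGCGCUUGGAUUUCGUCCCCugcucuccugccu
MIR191 lies at chr3:49020618-49020709 and MIR425 at chr3:49020148-49020234, both on the minus strand of GRCh38.p14. The hairpins are 383 bases apart and both fall within the span of DALRD3, whose protein has a DALR anticodon-binding domain.

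Levels were read as quantification cycles (Ct), the PCR cycle at which a well's signal passes the threshold, so that 1 cycle later is taken as 1 halving of the template. The mean Ct over 499 miRNA wells under Ct 35 in all 4 samples was 26.1 in shDDX1, 25.8 in shNS, 29.4 in NCS and 30.1 in untreated cells, and ratios were therefore taken only within a pair. Under Ct 35 were 723, 732, 591 and 521 of 740 miRNA wells in the same order. The 7 mesenchymal marker miRNAs, among them miR-21, were under Ct 35 in every sample, with medians of 21.0 in shDDX1, 21.3 in shNS, 26.1 in NCS and 26.1 in untreated cells. Of these 7, miR-10b was later than the sample's mean Ct in every sample, at 28.2, 27.6, 31.1 and 32.5 in the same order. The 9 markers of liver, neuron, blood, muscle and epithelium had later medians of 28.4, 27.8, 31.6 and 31.7. They too were under Ct 35, all 9 in shDDX1, shNS and NCS and 8 in untreated cells, so that limit did not separate the lists. The spread of the 3 calibrator wells of a plate, pooled over plates and samples, was 0.191 cycles (SD), and the 7 assays present on both panels gave an SD of one log2 ratio of 0.385 for shDDX1 over shNS and 0.795 for NCS over untreated. The second SD is 0.354 without miR-423-5p. These SDs are technical and hold no variation between cultures. They do not measure replicate error, which cannot be measured with 1 sample per group. No p-value was computed.

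miR-191 was the earliest member in every sample. Its panel I well read Ct 22.6 in shDDX1 and 22.4 in shNS, and 24.7 in NCS and 24.6 in untreated cells. Its panel II well read 22.3 in shDDX1 and 22.7 in shNS, and 24.7 in NCS and 24.4 in untreated cells. The 2 wells of a sample therefore differed by 0.250, -0.27, 0.0028 and 0.226 cycles (panel I minus panel II) in shDDX1, shNS, NCS and untreated cells, close to the spread of the calibrator wells.

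miR-425 read Ct 24.8 in shDDX1 and 23.6 in shNS, and 27.3 in NCS and 34.0 in untreated cells. The untreated value stands far from the other 3 and lies 1 cycle before the limit of 35. It placed miR-425 227th of 306 miRNA wells with a Ct on panel I in untreated cells. In shDDX1, shNS and NCS cells it was 116th of 373, 105th of 374 and 115th of 346. Its opposite arm miR-425* read 25.1 in shDDX1 and 24.9999 in shNS, and 28.2 in NCS and 29.4 in untreated cells.

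miR-191*, the only member measured on panel II alone, was the latest member in shDDX1, shNS and NCS cells. It read Ct 26.47 in shDDX1 and 26.98 in shNS, and 30.1 in NCS and 29.8 in untreated cells. The earliest water well of panel II read 26.498 in shDDX1 and 26.595 in shNS, so that miR-191* was about as late as this blank in shDDX1 and later than it in shNS. In NCS and untreated cells 0 of 9 water wells gave a Ct. On panel I the earliest water well read 27.3 in shDDX1 and 27.8 in shNS, later than every reading of miR-425, miR-425* and miR-191 in those samples.

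**Figure D1:**
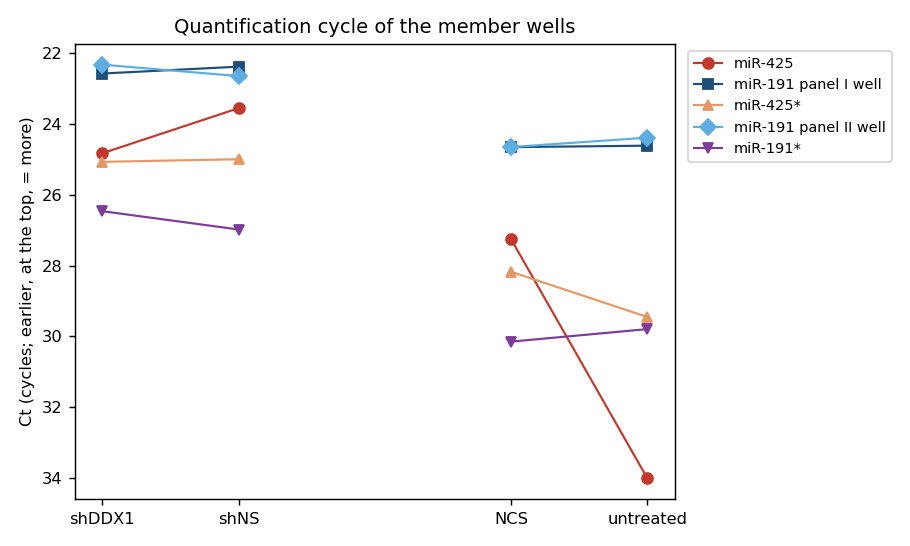
Ct in cycles (y axis, earlier at the top) of the 5 member wells in the 4 samples, 1 point per well and sample, with lines joining the samples of a pair. The untreated miR-425 point at 34.0 sits below all others, while the miR-191 wells of a sample lie within 0.27 cycles of each other.

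In shDDX1 cells miR-425 was the only member below its shNS level under the common centring. It was 1.95-fold lower than in shNS cells, a log2 ratio of -0.97 after centring each sample on its mean Ct, a size above the technical SD of 0.385. Over 13 settings, miR-425 was below 0 in 12 and at least 2-fold lower in 7, and it stood at 0.30 when the median of neighbouring wells was subtracted. The 7 are not all distinct. No centring and the authors' normalized and fold tables gave the same -1.27, since the authors shifted both samples by -0.789 cycles for this well. miR-425* had a log2 ratio of 0.23, miR-191 of 0.37 as the mean of its wells and miR-191* of 0.82. Of the 4 members, 0 were at least 2-fold lower, where 17.3% of 716 quantified miRNAs were, and 0 were at least 2-fold higher, where 11% were. The 716 were not filtered against the water wells. On panel II the wells used for centring had a mean Ct of 27.2 in shDDX1 and 27.3 in shNS. The earliest water well of that panel read 26.5 in shDDX1 and 26.6 in shNS, so the 716 include miRNAs that read later than a blank. The members' median was 0.30, against 0.04 over all quantified miRNAs. The wells of miR-191 gave 0.11 on panel I and 0.63 on panel II, so that the value of one well or the other falls on different sides of that SD.

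After NCS miR-425 was the only member that was at least 2-fold higher under the common centring, at 64.4-fold. Its log2 ratio of 6.01 was 6th of 498 quantified miRNAs, and stood at 5.21 when each panel was centred on its own wells. miR-191* was 2.12-fold lower, with a log2 ratio of -1.09, but stood at -0.26 when each panel was centred on its own wells. miR-191 had a log2 ratio of -0.88, with -0.77 in its panel I well and -0.996 in its panel II well. With each panel centred, the miR-191 wells parted to -1.58 on panel I and -0.17 on panel II. miR-425* had a log2 ratio of 0.54 under the common centring, but its place against the 2-fold mark depended on the scale. It was at least 2-fold higher in 4 of 13 settings and below 0 in 2. It stood at 1.27 with no centring, 1.33 with small RNA references and the same 1.12 in the authors' normalized and fold tables. Under the common centring 1 of 4 members was higher by the 2-fold mark, as were 16.9% of the 498 miRNAs. By the same mark 1 of 4 was lower, as were 22.3%. The members' median was -0.17, against -0.38 over all. In the authors' deposited fold table miR-425 was 53.2-fold higher after NCS and 0.414-fold the control in shDDX1. In the authors' deposited shifted Ct table miR-425 stands at 23.7 in NCS and 29.4 in untreated cells. That moved its untreated reading by -4.57 cycles, where the median well of panel I was moved by -3.63.

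Because miR-191 has a well on each panel, each mate can be set against it within a plate, where the centring of the samples cancels. miR-425 read 2.25 cycles later than miR-191 in shDDX1 and 1.17 later in shNS, so that relative to miR-191 it was 2.11-fold lower in shDDX1. With neighbouring wells subtracted from both, that log2 difference of -1.08 was 0.55. It read 2.60 cycles later than miR-191 in NCS and 9.38 later in untreated cells, so that relative to miR-191 it was 110.1-fold higher after NCS, a log2 difference of 6.78. That difference was 3.58 with neighbouring wells subtracted from both, and 5.97 in the authors' deposited tables. The distance of 1.17 to 2.60 cycles in shDDX1, shNS and NCS cells leaves untreated cells apart from the other 3 samples.

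miR-425* read 2.49 cycles later than miR-191 in shDDX1 and 2.61 in shNS, a difference of 0.12 that is under the technical SD of one log2 ratio. Its distance was 3.52 in NCS and 4.83 in untreated cells, which makes it 2.49-fold higher relative to miR-191 after NCS, a log2 difference of 1.32. With neighbouring wells subtracted from both, that difference was -0.017, and the 2-fold mark was no longer passed. miR-191* read 4.13 cycles later than the panel II well of miR-191 in shDDX1 and 4.33 in shNS, and 5.49 in NCS and 5.40 in untreated cells. The arms of MIR191 thus kept their distance within a pair, to 0.19 cycles between shDDX1 and shNS and 0.09 between NCS and untreated cells. In the knockdown pair this distance rests on miR-191* readings about as late as the earliest water well of panel II, or later. With each opposite arm taken relative to the miR-191 well of its own panel, miR-425* minus miR-191* was -0.07 for shDDX1 over shNS and 1.40 for NCS over untreated. The knockdown value rests on the same miR-191* readings.

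**Figure D2:**
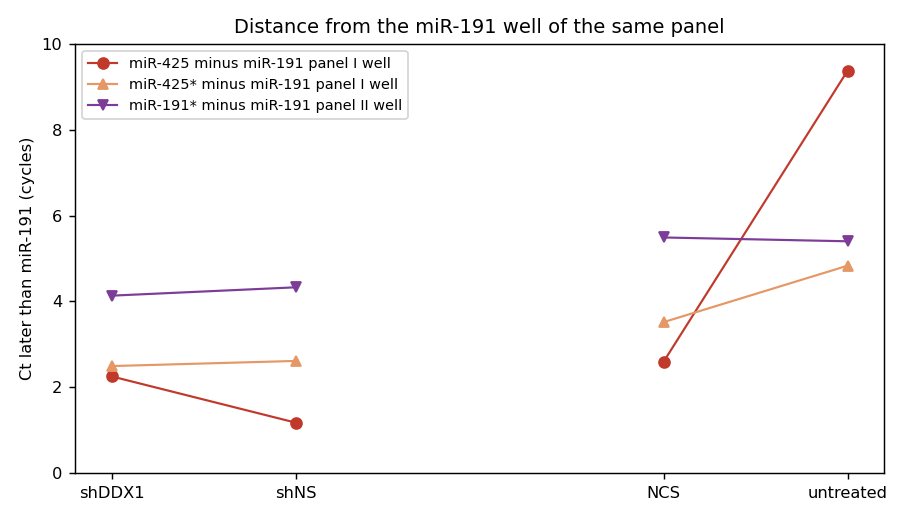
Cycles by which miR-425, miR-425* and miR-191* read later than the miR-191 well of the same panel (y axis) in each sample, 1 point per sample, lines joining a pair. miR-425 lies at 9.38 in untreated cells and between 1.17 and 2.60 in the other 3 samples, while miR-191* moves by 0.19 and 0.09 within the pairs.

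The balance of a hairpin's arms compares molecules cut from the same precursor. For MIR425 both assays are on panel I. miR-425* trailed miR-425 by 0.243 cycles in shDDX1 and by 1.44 in shNS, a change in balance of -1.20 on the log2 scale. It trailed by 0.919 cycles in NCS, but by -4.55 cycles in untreated cells, where it was the earlier arm, which makes the change 5.47 for NCS over untreated. With neighbouring wells subtracted from both arms, the change in MIR425 balance was 0.22 in shDDX1, so its direction turned, and 3.60 after NCS. For MIR191 the changes were -0.19 and 0.09. Over 121 hairpins with both arms quantified in the knockdown pair, with each panel centred on its own wells, the change ranged from -3.99 for miR-488 to 9.50 for miR-17, with a median of 0.09 and 75 hairpins under 1 in size. By size MIR425 was 36th and MIR191 108th of the 121. The place of MIR191 rests on miR-191* readings about as late as the earliest water well of panel II, or later. The other hairpins of the knockdown pair were not filtered against the water wells either. Among the 24 hairpins with both arms on panel I, whose median change was 0.50, MIR425 was 8th by size and 23rd from the top, above miR-96 alone. In the NCS pair 78 hairpins ranged from -5.73 for miR-18a to 7.06 for let-7a, with a median of -0.21 and 39 under 1 in size, and MIR425 was 3rd and MIR191 73rd by size. Among the 13 hairpins with both arms on panel I in that pair 3 were under 1 in size, against which the 5.47 of MIR425 was the second largest after miR-18a.

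**Figure D3:**
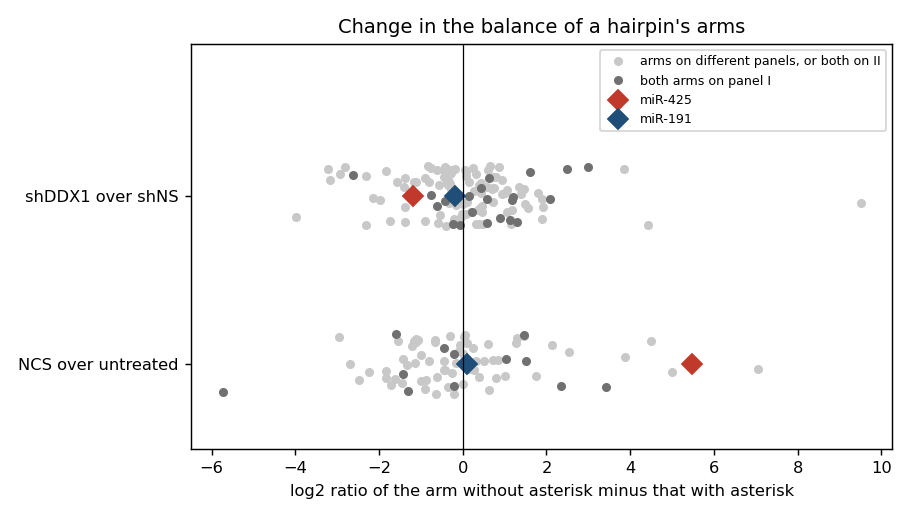
Change in the balance of hairpin arms (x axis, log2 ratio of the arm without asterisk minus that with asterisk, each panel centred) for shDDX1 over shNS (top row) and NCS over untreated (bottom row), 1 point per hairpin, with vertical jitter only for visibility. MIR191 (blue) lies at -0.19 and 0.09, and MIR425 (red) at -1.20 and 5.47. With neighbouring wells subtracted, which is not plotted, MIR425 would stand at 0.22 and 3.60.

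The wells of the cluster lie in different parts of the plate. miR-425 is in C12 and miR-425* in O8 of panel I, both in the middle columns 7 to 18, a range set after the data were seen. The miR-191 wells are in J2 of each panel and miR-191* in J23 of panel II, all in outer columns. In the middle columns of panel I the median log2 ratio was -0.82 for shDDX1 over shNS and 1.21 for NCS over untreated, and in its outer columns -0.22 and -0.16. In column 12, that of miR-425, the medians were -1.03 and 1.07, in column 8, that of miR-425*, -0.03 and 0.79, and in column 2, that of miR-191, 0.24 and -0.71.

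The 24 miRNA wells within 2 rows and 2 columns of miR-425 had a median log2 ratio of -1.26 for shDDX1 over shNS, and 15 of them were at least 2-fold lower. miR-425 itself, at -0.97, was 10th from the top of the 25. Relative to these neighbours it was 0.30 higher in shDDX1, so the direction of its change turned. For NCS over untreated, 11 of the 24 neighbours were quantified, with a median of 2.71 and a range from -0.10 to 6.12, and miR-425 was second highest of the 12. Relative to these 11 it was 3.30 higher after NCS on the log2 scale. In this neighbourhood 4 of the 24 wells were not under Ct 35 in NCS and 13 were not in untreated cells, so the median of 2.71 leaves out the wells that read latest in untreated cells. With all 16 neighbours that had a Ct in both samples, a set taken after the data were seen, the median was 3.17 and miR-425 stood 2.84 above it. The other 8 had no Ct in untreated cells and give no ratio.

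Set against shNS, which is another culture, miR-425 read 3.70 cycles later in NCS and 10.4 later in untreated cells. These delays are uncentred and cross the pairs, unlike the ratios above. The calibrator wells of panel I also read later than in shNS, with means of 17.8 in shNS, 20.7 in NCS and 21.5 in untreated cells. Those of panel II had means of 16.7 in shNS, 18.1 in NCS and 18.1 in untreated cells. The wells used for centring had a mean Ct of 27.9 in NCS and 29.4 in untreated cells on panel I, and 30.9 and 30.8 on panel II. Untreated cells thus read later than NCS cells over panel I, which holds miR-425, but not over panel II. The median delay of panel I was 3.55 in NCS and 4.99 in untreated cells, and that of the wells around miR-425 that had a Ct was 3.92 over 22 wells and 7.97 over 16. The delay of miR-425 was therefore near the panel's median in NCS, and in untreated cells it was the 25th longest of 306 wells. Against the wells around it, miR-425 was 0.23 cycles less delayed in NCS and 2.46 cycles more delayed in untreated cells. miR-425* was 3.17 cycles later in NCS and 4.45 in untreated cells, and the panel I well of miR-191 2.27 and 2.23. The part of plate position in these differences was not tested.

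For miR-425*, 13 quantified neighbours in the NCS pair had a median of 0.84, and relative to them it was at -0.29. For miR-191 the neighbours had a median of -0.50 after NCS around its panel I well and of -0.77 around its panel II well, and for miR-191* of -0.82. Relative to its neighbours each of the 3 wells lay between -0.28 and -0.23. In shDDX1 the same wells lay between -0.26 and 0.15 of their neighbours, and miR-425* at 0.08.

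**Figure D4:**
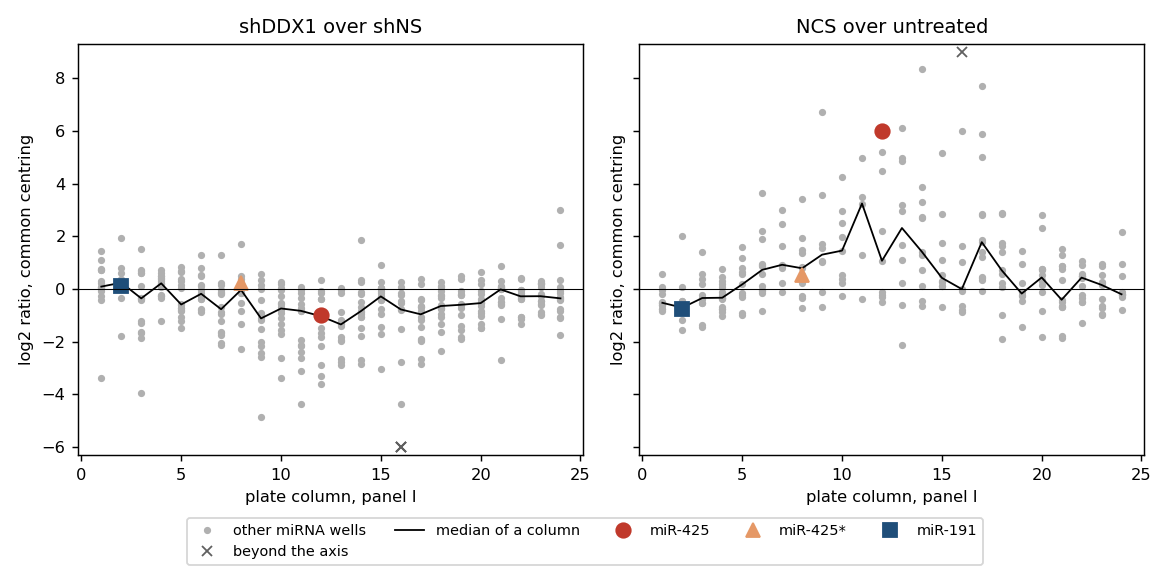
Log2 ratio under common centring (y axis) of the quantified miRNA wells of panel I by plate column (x axis), for shDDX1 over shNS (left) and NCS over untreated (right), with the median of each column as a line. Crosses at the edge stand for 3 wells on the left and 1 on the right beyond the axis. miR-425 sits near its column's median on the left, at -0.97, and far above it on the right, at 6.01.

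Mates of other clusters give a measure of how far neighbours part on these plates. RefSeq symbols were found for 410 of 514 assays of the arm without asterisk or of the earlier-read arm. Each pair of assays was counted once, and assays that read a common gene were not paired. In the knockdown pair 94 other pairs of adjacent miRNA genes within 10 kb on one strand and on one panel were quantified. The size of the difference between mates had a median of 0.74, from 0.01 for miR-19a and miR-18a to 4.12 for miR-494 and miR-329, and 62 pairs were under 1. miR-425 minus miR-191, at -1.08, was 33rd by size of 95. In the NCS pair 57 other pairs had a median of 0.94, from 0.02 for miR-194 and miR-215 to 9.58 for miR-100 and let-7a, and 30 were under 1. miR-425 minus miR-191, at 6.78, was 3rd by size of 58. Some assays belong to more than 1 pair, and assays such as let-7a and miR-16 read the product of several loci. The mates of the knockdown pair were not filtered against the water wells.

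The miRNAs most like miR-425 were sought among 252 panel I assays quantified in all 4 samples, by Euclidean distance between pairs of log2 ratios with each panel centred. The nearest 5 were miR-155, miR-101, miR-1979, miR-96 and miR-339-5p, at distances of 0.564 to 0.988. All 5 lie in the middle columns, as do 44.4% of the 252. That they read later in untreated cells than in NCS cells, like miR-425, follows from how they were chosen. miR-155 had a Ct of 28.0 in NCS and 34.7 in untreated cells, and miR-101 24.8 and 32.2. Those most like the panel I well of miR-191 were miR-126*, miR-574-3p, miR-197, miR-145 and miR-379, at 0.041 to 0.171, of which 1 lies in the middle columns. Their small change in uncentred Ct after NCS, like that of miR-191, also follows from the choice. An example is miR-197, with 24.2 in NCS and 24.2 in untreated cells. Of the 5 assays nearest to miR-425*, itself in a middle column, 2 lie in the middle columns. For miR-191 on panel II and for miR-191*, both in outer columns, 3 of the nearest 5 do, as do 52.7% of the 245 panel II assays compared.

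As a reference assay miR-191 was set beside the others. In uncentred log2 ratios for shDDX1 over shNS, miR-191 stood at -0.19 on panel I and 0.32 on panel II, miR-103 at 0.06 and 0.23, and miR-423-5p at -0.19 and 0.72. The small RNAs stood at 1.10 and 0.29 for U6, 0.25 and 0.23 for SNORD38B, and -0.06 and 0.36 for SNORD49A. For NCS over untreated, miR-191 stood at -0.04 and -0.26, miR-103 at -0.03 and -0.04, and miR-423-5p at 2.74 and 0.03. U6 stood at 0.45 and -0.09, SNORD38B at -0.07 and -0.40, and SNORD49A at 0.18 and -0.41. Of these assays miR-423-5p parted most between panels, with a panel I minus panel II difference of -0.91 for shDDX1 over shNS and 2.71 for NCS over untreated, where miR-191 had -0.52 and 0.22. With miR-191 left out of its own scale and miR-103 and miR-423-5p as references, miR-191 was at -0.14 in shDDX1 and -0.83 after NCS. Against the small RNAs U6, SNORD38B and SNORD49A it was at -0.30 and -0.10, so the direction of miR-191 in shDDX1 depended on the scale. These scales shift the median of all miRNAs by -0.51 and 0.06 for the reference miRNAs and by -0.67 and 0.79 for the small RNAs.

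**Figure D5:**
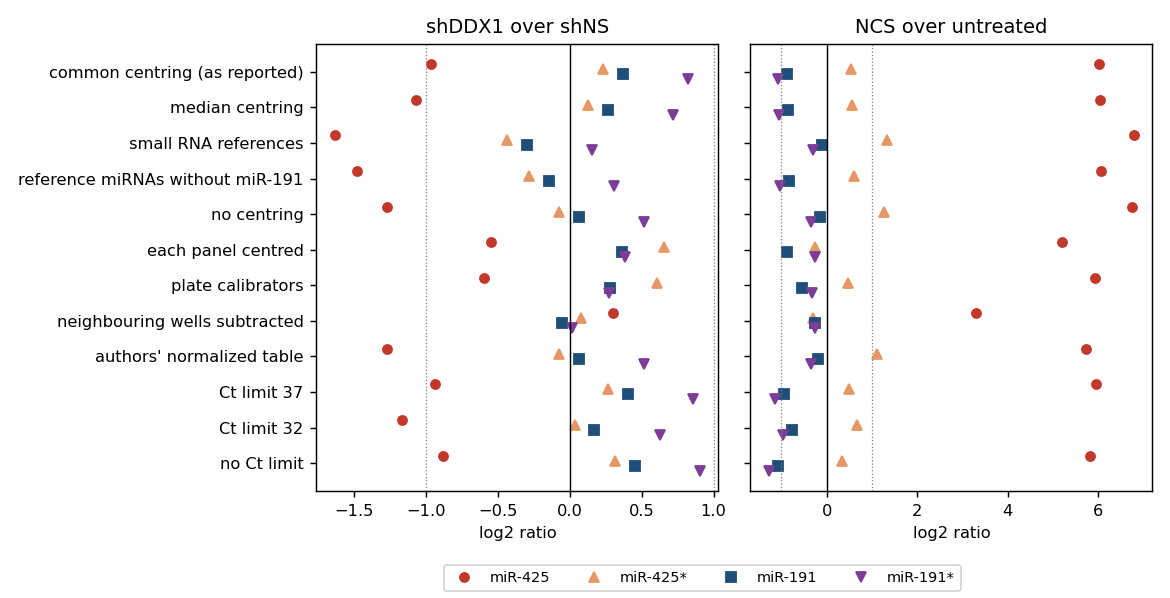
Log2 ratios (x axis) of the 4 members under each way of scaling or filtering (rows), for shDDX1 over shNS (left) and NCS over untreated (right). Dotted lines mark 2-fold. miR-425 lies between 3.30 and 6.80 after NCS in every setting that gave a value, and between -1.63 and 0.30 in shDDX1, above 0 only with neighbouring wells subtracted.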

How the data were processed

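Mature miRNAs of 4 U2OS samples were measured by quantitative PCR on a human 2-panel plate set, per the labels. The authors deposited 3 tables: Ct per well, Ct shifted by panel, and a linear fold over each control as a ratio. Instrument, threshold and baseline are not given in the sources used here. Ct was the starting point. In the deposited shifted table, 3 of the 7 assays on both panels, miR-191 among them, had their rows in a different panel order in the 2 pairs, and rows were matched to panels by each panel's median shift. Log2 ratios were computed in Python 3.11.15 with pandas 2.3.3, 1 cycle as 1 doubling, centred on the mean Ct of wells under Ct 35 in all 4 samples. An assay was quantified where both samples of a pair were under 35. The log2 ratios were tested on simulated Ct with known shifts and an offset between panels. That simulation held no missing wells and no effect of plate position, and it did not cover arms or cluster mates. Members, lists and the naming rule (member wells, reference assays, the 5 nearest miRNAs, neighbouring wells, extreme cluster pairs) were chosen with earlier results of these data known. The planned difference of miR-425* and miR-191* within panel II could not be taken, since miR-425* lies on panel I.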

Additional observations from a re-analysis of the deposited data

Results flagged for a closer look

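Water wells gave a signal although they hold no sample and enter no comparison. The earliest on panel I read Ct 27.3 in shDDX1 and 27.8 in shNS, and the earliest on panel II 26.5 in shDDX1 and 26.6 in shNS. In NCS and untreated cells 0 of 9 water wells gave a Ct. Among the members, miR-191* read closest to these, at 26.47 in shDDX1 and 26.98 in shNS on panel II.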

How the results depend on the processing

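No paired analysis was possible because there is a single sample in every group, which also leaves the differences without a replicate check. A value counts as moved where it shifts by more than the technical SD of one log2 ratio, a mark also used for differences between wells. Of the values of members, arms and mates, 107 did not move, 25 did, and 3 that were past 2-fold changed sign. Some of the 107 could not have moved or count a value again. The authors' normalized and fold tables gave the same log2 values, and common centring leaves the balance of arms on the same panel unchanged. Median centring, no centring and limits of Ct 37, 32 or none moved no member, although a limit of 32 left miR-425 after NCS without a value. For NCS over untreated this mark was wide, at 0.795, and is 0.354 without miR-423-5p. Within it, no centring took miR-425* from 0.54 to 1.27 and miR-191* from -1.09 to -0.35, each across the 2-fold mark. Small RNA references put them at 1.33 and -0.30. For shDDX1 over shNS, small RNA references put miR-425, miR-425*, miR-191 and miR-191* at -1.63, -0.44, -0.30 and 0.15, and reference miRNAs at -1.48, -0.28, -0.14 and 0.31. Centring each panel put miR-425, miR-425* and miR-191* at -0.54, 0.65 and 0.39, and plate calibrators put miR-191* at 0.27. Subtraction of neighbouring wells put miR-425, miR-191 and miR-191* at 0.30, -0.055 and 0.015, turned miR-425 minus miR-191 to 0.55 and turned the MIR425 arm balance to 0.22. The last of these was added after the data were seen. For NCS over untreated, centring each panel put miR-425, miR-425* and miR-191* at 5.21, -0.26 and -0.26. Subtraction of neighbours put them at 3.30, -0.29 and -0.27, miR-425 minus miR-191 at 3.58, miR-425* minus miR-191 at -0.017 and the MIR425 arm balance at 3.60. Centring each panel left the mean of the miR-191 wells at -0.87, but put its panel I well at -1.58 and its panel II well at -0.17. The authors' deposited normalized and fold tables each put miR-425 minus miR-191 at 5.97. At 1.5-fold, shDDX1 had 200 lower and 167 higher miRNAs and NCS had 202 lower. With a mark of 4-fold, shDDX1 had 43 lower and 13 higher miRNAs, and NCS had 14 lower and 41 higher. The causes were not tested.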
